A study of Mus musculus with 9 samples.

Results

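The genes described are 9 of the 54532 genes in the deposited expression values, chosen by name: *Isg15* and the enzymes that attach its protein to other proteins (*Uba7*, *Ube2l6* and *Herc6*), and the interferon-induced PARP genes *Parp9*, *Parp10*, *Parp12* and *Parp14* with *Dtx3l*, the partner of *Parp9*. All 9 passed the filter on low values (0.5 FPKM on average) and were tested. They were measured by RNA-seq in HT22 cells, an immortalized line derived from mouse hippocampal neurons, in 9 libraries from 3 groups of 3. Control cells received no treatment. OGP cells went through 2 h of oxygen glucose deprivation (OGD) and then 24 h of reoxygenation with PBS. OGE cells went through the same OGD and reoxygenation, but received hiPS-MSC-EVs, the extracellular vesicles of mesenchymal stem cells made from human induced pluripotent stem cells. The comparison of OGP with control asks how OGD and reoxygenation changed these genes, and that of OGE with OGP how the EVs did. Whether the libraries of a group came from separate cultures is not stated, so p-values measure only the spread between these libraries. By the paper's methods the OGD medium held no serum, and the sources differ on the medium during reoxygenation. A difference in serum therefore cannot be told apart from OGD and reoxygenation in OGP against control. Nor can it be told apart from the EVs in OGE against OGP.

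ISG15 is a small protein made of a pair of ubiquitin-like folds. It is joined to lysines of newly made proteins by a cascade in which UBA7 activates it (the E1 step), UBE2L6 carries it (E2) and, in the mouse, HERC6 transfers it (E3). The protease USP18 removes it again. PARP proteins use NAD+ to put ADP-ribose on their targets. PARP10, PARP12 and PARP14 attach single ADP-ribose units, while PARP9 works in a complex with the ubiquitin ligase DTX3L. Type I interferons, acting through STAT and IRF transcription factors, raise the transcription of all of these genes in many cell types.

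The 3 enzyme genes of the ISG15 cascade rose 1.94- to 2.09-fold in OGP cells, where 6.38% of all genes tested were called higher, whereas *Isg15* itself was not called different from control. With EVs, all 9 genes fell below OGP, against 4.73% of all genes, *Isg15* and *Ube2l6* the most, to 0.267 and 0.263 of their OGP means. The OGE libraries lay below the control libraries too for each of the 9 genes, against 19.6% of all genes, and 7 of these differences were called, against 6.33%. *Dtx3l* was the 1 member whose OGP libraries lay below control, as those of 22.6% of all genes did.

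The libraries held 15026700 to 19476806 reads in genes, as recovered from the FPKM values (fragments per kilobase, corrected for depth). Even the lowest member value, that of *Uba7* in an OGE library, rests on 318 reads. Mitochondrial transcripts took 1.10% to 2.31% of the reads in control, 2.45% to 3.25% in OGP and 2.03% to 2.90% in OGE libraries. Control replicate 1 and OGE replicate 3 stood apart from the others of their groups on the third principal component (33.1 against -15.0 and -11.0, and -19.4 against 2.01 and 8.77). A member's value that changes in call, in direction or by over 1.5 times without them is given both ways. Of 10 neuron markers, 7 had group means under 0.5 FPKM in every group, among them *Rbfox3*, *Dcx* and *Snap25*, and the highest, *Tubb3*, was at 7.95 to 14.0 FPKM in the group means. The tested neuron markers *Eno2* and *Map2* had group means of 5.49, 2.70 and 4.14 FPKM and of 1.32, 2.13 and 1.34 FPKM in control, OGP and OGE, while the fibroblast and mesenchymal gene *Vim* was at 441 to 556 FPKM. Fewer cells of a kind and less RNA per cell cannot be told apart in such bulk samples.

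*Isg15*, the modifier itself (chromosome 4, 156199424 to 156200818 on the minus strand of mm10), was among the most abundant transcripts of the untreated line. Its FPKM was 785, 1288 and 1139 in control replicates 1 to 3, 1081, 1128 and 1043 in OGP and 289.2, 259.8 and 320.4 in OGE. Control and OGP libraries overlapped, with control replicate 1 the lowest of these 6, and the OGE libraries lay below all of them. By FPKM it ranked 13 to 24 among all genes of a library in control, 18 to 25 in OGP and 114 to 133 in OGE. The fitted log2 fold change, on the log2(FPKM + 0.5) scale, was 0.05 (SE 0.17, 95% interval -0.34 to 0.43) in OGP against control, with an adjusted p of 0.859 in limma. This interval leaves out a 1.5-fold change in either direction. Without control replicate 1 the value was -0.16, and with quantile normalization -0.26, neither of them called. Against OGP, *Isg15* fell by 1.91 on the log2 scale in OGE (SE 0.17, limma adjusted p = 9.20e-05), and against control it fell by 1.86 (adjusted p = 8.48e-05).

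**Figure D1:**
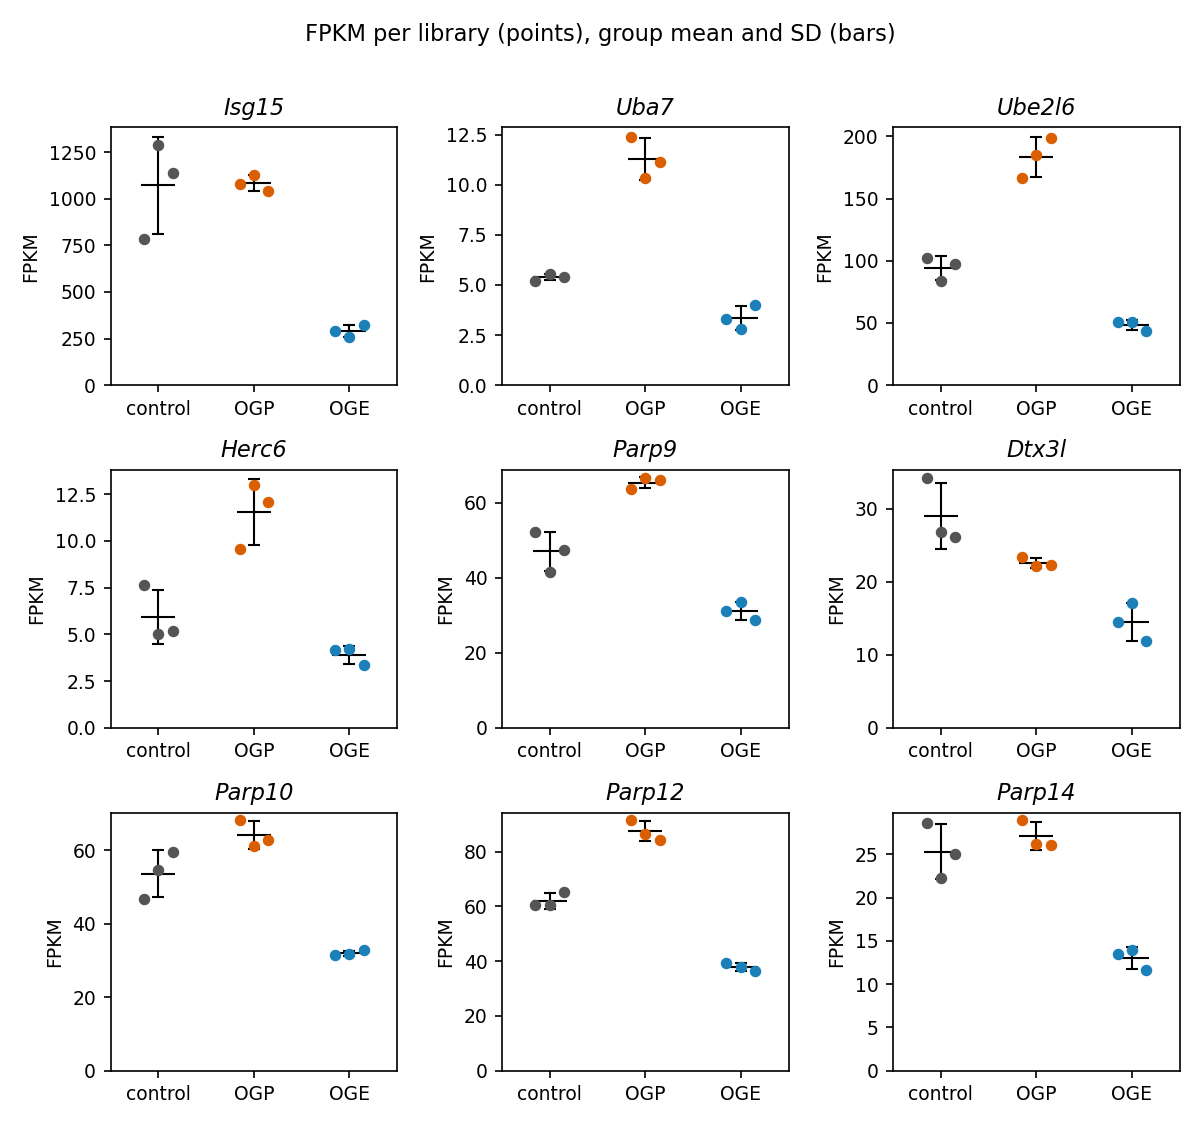
FPKM (vertical axes, from 0) of the 9 genes in each library of the control, OGP and OGE groups, with 1 panel per gene; points are libraries in the order of their replicate numbers, and black bars are the mean and SD of 3 libraries. The OGE points lie below all control and OGP points in every panel, the OGP points of *Uba7*, *Ube2l6* and *Herc6* lie above control, and those of *Isg15* lie among the control points.

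The enzyme genes of the cascade were far less abundant than *Isg15*. *Uba7*, the E1 gene (chromosome 9, 107975505 to 107984060, plus strand), had 5.22, 5.52 and 5.42 FPKM in control, 12.4, 10.3 and 11.1 in OGP and 3.32, 2.81 and 3.996 in OGE. The 3 groups did not overlap, and OGP was the highest. The mean rose 2.09-fold from control to OGP, a log2 fold change of 1.00 (SE 0.12, limma adjusted p = 4.07e-04), and *Uba7* fell by 1.61 from OGP to OGE (adjusted p = 2.79e-05). OGE against control gave a log2 fold change of -0.61 (adjusted p = 0.00501). That last difference was no longer called without OGE replicate 2, at -0.51, or with a pseudocount of 1, at -0.56.

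*Ube2l6*, the E2 gene (chromosome 2, 84798828 to 84810335, plus strand), had 102, 83.7 and 97.1 FPKM in control, 167, 185 and 199 in OGP, and 50.6, 50.6 and 43.5 in OGE. Again each OGP library lay above each control library, and each OGE library below. The log2 fold change was 0.96 in OGP against control (SE 0.11, limma adjusted p = 3.01e-04), -1.92 in OGE against OGP (adjusted p = 8.19e-06) and -0.96 in OGE against control (adjusted p = 2.50e-04). *Ube2l6* had the smallest p of the 9 genes in OGE against OGP and ranked 28 among all genes tested.

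*Herc6*, the E3 gene of the mouse (chromosome 6, 57581000 to 57664632, plus strand), had 7.61, 5.04 and 5.19 FPKM in control, 9.57, 13.0 and 12.1 in OGP, and 4.15, 4.20 and 3.36 in OGE. Control replicate 1 was the highest of its group, but the groups did not overlap. *Herc6* rose by a log2 fold change of 0.91 in OGP against control (SE 0.17, limma adjusted p = 0.00397) and fell by 1.44 in OGE against OGP (adjusted p = 4.49e-04). OGE against control gave -0.53 (SE 0.17, 95% interval -0.91 to -0.15, adjusted p = 0.0463), short of the 1.5-fold change that a call needs, and was called without control replicate 2 (-0.63). It shrank to -0.35 without control replicate 1, to -0.44 without OGE replicate 3 and to -0.26 without both (limma adjusted p = 0.0713, 0.133 and 0.150).

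The proportion of *Isg15* to its enzymes was compared within each library. The ratio of *Isg15* to *Uba7* FPKM was 150.3, 233 and 210.3 in control, 87.3, 109 and 93.8 in OGP, and 87.2, 92.6 and 80.2 in OGE. The ratio of *Isg15* to *Ube2l6* was 7.68, 15.4 and 11.7 in control, 6.48, 6.09 and 5.25 in OGP, and 5.72, 5.13 and 7.36 in OGE. All control libraries lay above all OGP libraries in both ratios, and OGP and OGE overlapped. The exact two-sided permutation test gave p = 0.1 for OGP against control in each, which is the smallest p that 3 libraries against 3 allow. For OGE against OGP the same exact permutation test gave p = 0.2 for the ratio to *Uba7* and p = 1.0 for that to *Ube2l6*. The ratio of *Herc6* to *Isg15* overlapped between OGP and control (exact permutation p = 0.2), with control replicate 1 at 0.00970 beside 0.00391 and 0.00455 in the other control libraries. Control replicate 1 had the lowest *Isg15* to enzyme ratios of its group.

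**Figure D2:**
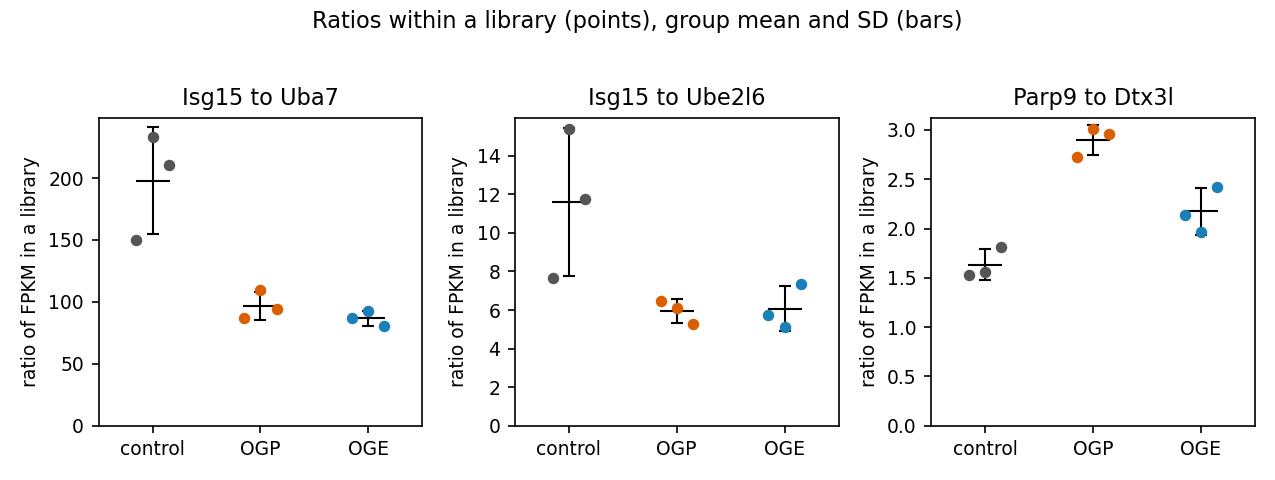
Ratios of the FPKM of 2 genes within each library (points), for *Isg15* to *Uba7*, *Isg15* to *Ube2l6* and *Parp9* to *Dtx3l*, with black bars for the group mean and SD of 3 libraries and vertical axes from 0. The first 2 ratios are higher in control than in OGP and overlap between OGP and OGE, while *Parp9* to *Dtx3l* is lowest in control (1.53 to 1.81), highest in OGP (2.72 to 3.01) and between them in OGE (1.96 to 2.43).

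The promoter sequences of *Isg15* and *Uba7* are shown because *Uba7* was called higher in OGP and *Isg15* was not, while both were lower with EVs. The RefSeq table for GRCm38.p6 (the mm10 assembly) holds the 300 bases around the start for 6 of the 9 genes, and *Parp9*, *Parp10* and *Parp14* were not in it. Both strands were searched for GAAA followed by any 2 bases and a further GAAA, the core of the interferon-stimulated response element. *Isg15* was the 1 gene of the 6 with this motif, in 3 overlapping copies whose first bases lie 78, 72 and 66 bases before the start. In *Uba7* a shorter form, AAANNGAAA, matched once on the opposite strand, 27 to 19 bases before the start that the RefSeq table gives. This form was chosen after the sequences were seen and is contained in every copy of the longer motif. The gene coordinates of *Uba7* given above begin at 107975505, upstream of that RefSeq start, so the match lies within them. The longer motif occurs in 3.44% and AAANNGAAA in 10.6% of the 32851 promoters of that table. TTCNNNGAA, the core of the interferon-gamma activated site, occurs in 8.30% of them and in none of the 6. A match is a description of the letters and not a measured binding site. Both sequences run 5′ to 3′ on the strand of the gene, with the motif matches in capitals, from chr4:156200769-156201068 (minus strand) and chr9:107975317-107975616 (plus strand):
Isg15: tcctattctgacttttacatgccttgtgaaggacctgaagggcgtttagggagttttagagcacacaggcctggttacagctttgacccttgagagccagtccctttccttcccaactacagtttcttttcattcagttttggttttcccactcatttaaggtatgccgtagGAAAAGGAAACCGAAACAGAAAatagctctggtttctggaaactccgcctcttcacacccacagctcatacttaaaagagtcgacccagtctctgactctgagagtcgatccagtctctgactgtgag
Uba7: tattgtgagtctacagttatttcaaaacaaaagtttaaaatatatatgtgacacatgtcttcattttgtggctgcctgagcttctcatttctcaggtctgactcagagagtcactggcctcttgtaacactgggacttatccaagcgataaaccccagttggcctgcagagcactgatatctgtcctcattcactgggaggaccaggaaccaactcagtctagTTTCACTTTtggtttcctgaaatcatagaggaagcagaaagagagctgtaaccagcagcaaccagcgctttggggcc

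Of the interferon-induced PARP genes, *Parp12*, whose protein attaches single ADP-ribose units, was the most abundant. It had 60.5, 60.4 and 65.4 FPKM in control (chromosome 6, 39086410 to 39118349, minus strand), 91.5, 86.6 and 84.3 in OGP, and 39.3, 38.0 and 36.3 in OGE. Each OGP library lay above control and each OGE library below it. The difference from control in OGP was 0.49 on the log2 scale (SE 0.071, limma adjusted p = 0.00120), a 1.41-fold ratio of means that misses the fold a call needs. *Parp12* fell by 1.20 in OGE against OGP (SE 0.071, adjusted p = 9.92e-06) and by 0.71 against control (adjusted p = 1.44e-04).

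*Parp10*, another mono-ADP-ribosyltransferase gene (chromosome 15, 76231174 to 76243441, minus strand), had 46.8, 54.6 and 59.6 FPKM in control, 68.4, 61.2 and 62.8 in OGP, and 31.5, 31.8 and 32.7 in OGE. The OGP libraries lay just above control, and the OGE libraries were the closest to each other of any member. OGP against control gave a log2 fold change of 0.26 (SE 0.095, limma adjusted p = 0.0657), which was not called and was 0.17 without control replicate 1. In OGE it fell by 0.99 against OGP (adjusted p = 1.40e-04) and by 0.73 against control (adjusted p = 6.28e-04). Part of *Parp10*, 1401 bases, overlaps *Plec* on the same strand, whose group means went the other way after EVs, at 41.4 in OGP and 49.0 FPKM in OGE, and which was not called in any comparison.

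*Parp14*, the gene of a large PARP with domains that bind ADP-ribose (chromosome 16, 35832874 to 35871544, minus strand), had 28.6, 22.3 and 25.0 FPKM in control, 28.9, 26.2 and 26.1 in OGP, and 13.4, 14.0 and 11.6 in OGE. Control and OGP overlapped, and OGE lay below both. Its log2 fold change was 0.10 in OGP against control (SE 0.11, 95% interval -0.14 to 0.34, limma adjusted p = 0.512), and 0.19, 0.01 and 0.05 without control replicate 1, control replicate 2 and OGP replicate 1, none of them called. In OGE it fell by 1.03 against OGP (adjusted p = 2.30e-04) and by 0.93 against control (adjusted p = 3.09e-04).

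*Parp9* and *Dtx3l* encode the partners of 1 complex and lie head to head on chromosome 16, *Parp9* at 35938470 to 35972605 on the plus strand and *Dtx3l* at 35926511 to 35939151 on the minus strand. *Parp9* had 52.1, 41.7 and 47.3 FPKM in control, 63.8, 66.5 and 65.9 in OGP, and 31.1, 33.6 and 28.7 in OGE. *Dtx3l* had 34.2, 26.8 and 26.1 FPKM in control, 23.4, 22.1 and 22.3 in OGP, and 14.6, 17.1 and 11.8 in OGE. Thus *Parp9* was highest in OGP and *Dtx3l* in control, each without overlap, and both were lowest in OGE. In OGP against control *Parp9* gave a log2 fold change of 0.48 (SE 0.095, limma adjusted p = 0.00581), short of the fold for a call, and *Dtx3l* gave -0.34 (SE 0.14, 95% interval -0.66 to -0.03, adjusted p = 0.0956). Without control replicate 1, the highest *Dtx3l* library, its value was -0.22 (limma adjusted p = 0.206).

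The ratio of *Parp9* to *Dtx3l* FPKM was 1.53, 1.56 and 1.81 in control, 2.72, 3.01 and 2.95 in OGP, and 2.14, 1.96 and 2.43 in OGE. No 2 groups overlapped, and the exact two-sided permutation test gave p = 0.1, its smallest possible value, for each of the 3 comparisons. With EVs both genes fell against OGP, with log2 fold changes of -1.06 for *Parp9* (limma adjusted p = 9.12e-05) and -0.64 for *Dtx3l* (adjusted p = 0.0130). The *Dtx3l* difference was -0.50 and no longer called without OGE replicate 3. Against control *Dtx3l* fell by 0.98 in OGE (adjusted p = 0.00110), while *Parp9* gave -0.58 (adjusted p = 0.00222), which just missed a 1.5-fold change. Over 21 alternatives this *Parp9* value ran from -0.67 to -0.45 and was called in 5, among them the fit without a fold threshold. The others were those without control replicate 2 (-0.67), without OGE replicate 1 (-0.59), without OGE replicate 2 (-0.64) and with a pseudocount of 0.1 (-0.59). The genes overlap by 682 bases on opposite strands, and the counting is not stated to use strand, so reads from that stretch cannot be told apart.

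Against all genes, the 9 members stood as follows. In OGP against control 3 of 9 were called higher, where 6.38% of all 13245 genes tested were, and 0 of 9 were called lower, where 5.74% of all genes were. *Dtx3l* was the 1 member with a negative difference at an unadjusted p under 0.05 (0.0366), and voom on the recovered reads also called 0 lower. Without the fold threshold 5 were higher, *Parp9* and *Parp12* being added, where 13.8% of all genes were. The OGP libraries lay above all control libraries for 6 members and below them for 1, where 20.3% and 22.6% of all genes did so. The median log2 fold change was 0.48 over the members and 0.0063 over all genes.

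In OGE against OGP 9 of 9 members were called lower, against 4.73% of all genes lower and 3.39% higher, and the groups did not overlap for any of them, against 22.0% of all genes with OGE below OGP. Their log2 fold changes ran from -1.92 (*Ube2l6*) to -0.64 (*Dtx3l*), with a median of -1.20, where the median over all genes was 0.0039. In OGE against control 7 of 9 were called lower, against 6.33% of all genes lower and 5.14% higher, and all 9 lay below control without overlap, against 19.6%. The median over the members was -0.73 and over all genes -0.0034. Without the fold threshold *Herc6* and *Parp9* were added, making 9 of 9, where 13.1% of all genes were lower. Each pair of these comparisons shares the libraries of 1 group, so they are not independent of each other. Without control replicate 1 and OGE replicate 3 together the counts were 3 higher in OGP against control, 8 lower in OGE against OGP, *Dtx3l* being lost, and 7 lower in OGE against control.

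**Figure D3:**
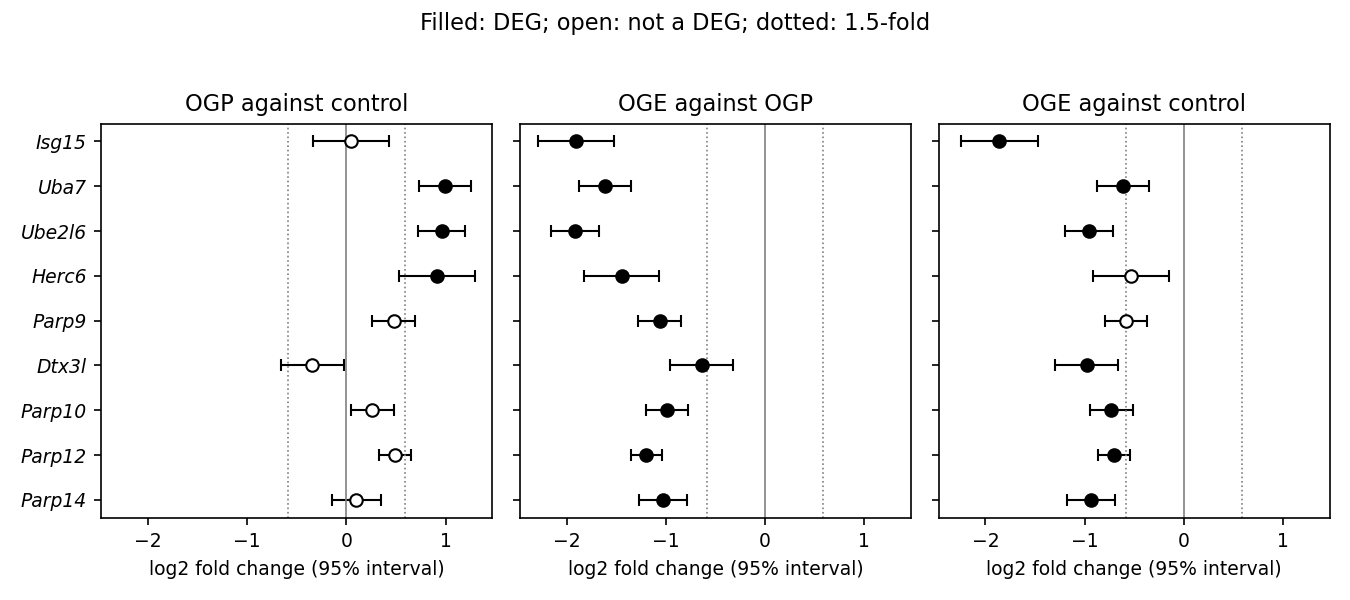
Fitted log2 fold changes of log2(FPKM + 0.5) (horizontal axes) with 95% intervals for the 9 genes in the 3 comparisons; filled points passed an adjusted p of 0.05 and a 1.5-fold change in limma, open points did not, and dotted lines mark 1.5-fold. Filled points number 3 to the right of 0 in OGP against control, 9 to the left of it in OGE against OGP, and 7 to the left in OGE against control.

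FPKM allow for gene length, so that levels can be ranked between genes. In each group *Isg15* was highest, followed by *Ube2l6* and then *Parp12*, each without overlap with the next, and *Herc6* and *Uba7* came last and overlapped. *Isg15* was 11.4 times as high as *Ube2l6* in the control means, 5.91 times in OGP and 6.01 times in OGE. *Parp10* and *Parp9* overlapped in every group. *Dtx3l* and *Parp14* overlapped in control and OGE, but in OGP *Parp14* lay above *Dtx3l*.

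Genes of proteins that remove ISG15 or act as further ISG15 ligases formed a list of 8. Of these, 6 were tested, and their median log2 fold change was 0.04 in OGE against OGP. *Usp18*, the gene of the main ISG15 protease and itself induced by interferon, had 119, 128.0 and 136 FPKM in control, 129.8, 124 and 139 in OGP, and 50.9, 49.7 and 44.9 in OGE. Like *Isg15*, it overlapped between control and OGP (log2 fold change 0.04, limma adjusted p = 0.764) and fell by 1.43 in OGE against OGP (adjusted p = 9.95e-06). *Trim25*, the gene of an interferon-induced ubiquitin and ISG15 ligase, had 59.9, 55.9 and 60.2 FPKM in control, 41.7, 38.4 and 36.5 in OGP, and 32.6, 32.5 and 30.5 in OGE. It was lower than control in both treated groups, with log2 fold changes of -0.59 in OGP (adjusted p = 6.00e-04) and -0.87 in OGE (adjusted p = 5.24e-05). The other 4 genes tested were not called in any comparison.

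Relatives of the cascade enzymes that serve other modifiers were compared too. *Uba1*, the E1 gene of ubiquitin, had group means of 125.9, 93.9 and 120.3 FPKM in control, OGP and OGE, and *Ube2l3*, the relative of *Ube2l6* that serves ubiquitin, had 31.4, 26.4 and 27.2, neither of them called in a comparison. Of 30 other E2 genes tested, 0 were called in OGP against control (12 at an unadjusted p under 0.05, 0 by voom) and 0 in OGE against OGP (7 at that p, 0 by voom), and *Ube2e2* was the 1 called in OGE against control, at -0.70.

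Among 7 other HERC and DTX genes tested, 0 were called in OGE against OGP (1 at an unadjusted p under 0.05, 0 by voom). *Herc3* was lower than control in OGP and OGE, with log2 fold changes of -0.60 and -0.67, and *Dtx4* was higher in both, with 0.89 and 1.07. *Herc4* and *Dtx2* were not called in a comparison. *Ubb*, a polyubiquitin gene, was not called in a comparison. *Rps27a*, which encodes a ubiquitin fused to a ribosomal protein and has many near-identical copies that can share its reads, was called, at 1.71 in OGP against control and at -1.17 in OGE against OGP.

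Of 12 PARP genes outside the members, *Parp11* alone was called in a comparison. It encodes a mono-ADP-ribosyltransferase and had 8.09, 6.29 and 7.45 FPKM in control, 11.4, 11.1 and 11.8 in OGP, and 4.70, 5.19 and 4.53 in OGE, on 494 to 1581 reads. It rose in OGP by 0.62 on the log2 scale (SE 0.098, limma adjusted p = 0.00184) and fell by 1.17 in OGE against OGP (adjusted p = 6.28e-05). Against control OGE gave -0.55, which was not called.

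*Parp1*, the gene of the abundant DNA damage sensor, had group means of 45.6, 37.8 and 42.2 FPKM and was not called. The other 11 genes ranged from -0.47 (*Parp3*) to 0.44 (*Parp16*) in OGE against OGP, and 5 of the 12 had an unadjusted p under 0.05 there. Besides *Parp11* these were *Parp3* and *Zc3hav1* (-0.31), which were lower, and *Tnks* (0.41) and *Parp16*, which were higher. Their limma adjusted p was 0.00765, 0.0248, 0.0216 and 0.0215 in that order, and they missed only the fold for a call. In OGE against control 0 of the 12 were called (4 at an unadjusted p under 0.05, 0 by voom). Of the 5 tested genes of enzymes that remove ADP-ribose, among them *Parg*, 0 were called in any of the 3 comparisons by limma or by voom, and 0 had an unadjusted p under 0.05. Their log2 fold changes ran from -0.24 to 0.13 in OGE against OGP.

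**Figure D4:**
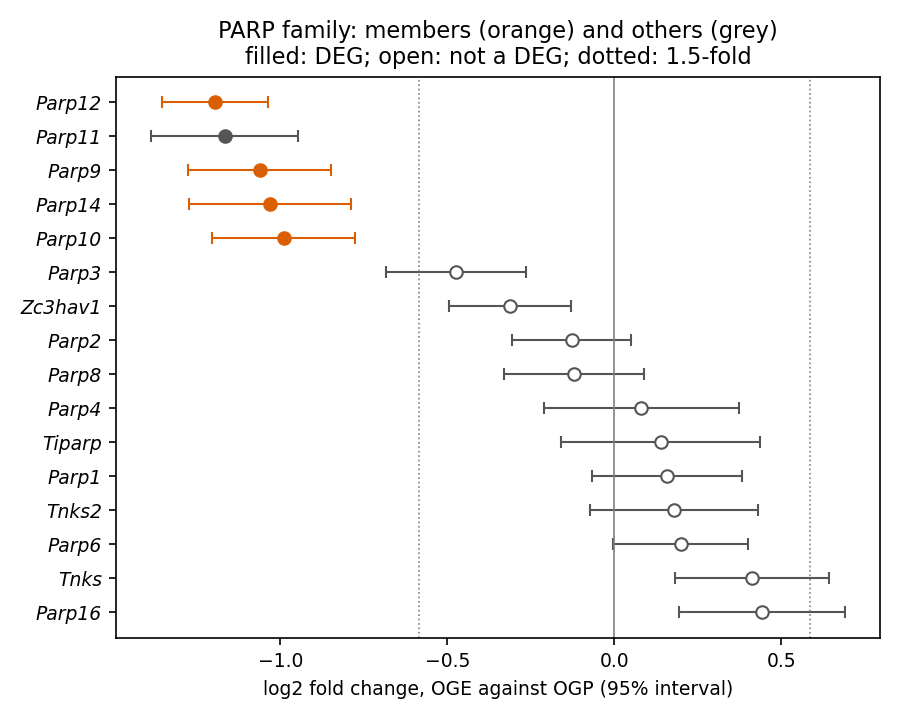
Log2 fold change in OGE against OGP (horizontal axis, with 95% intervals) of the 4 PARP members (orange) and 12 other PARP family genes (grey), ordered by value; filled points passed an adjusted p of 0.05 and a 1.5-fold change, and dotted lines mark 1.5-fold. The 4 members and *Parp11* lie between -1.20 and -0.99, and the other 11 genes between -0.47 and 0.44.

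Genes that carry the interferon signal were compared in the same way. Of 11 tested, 0 were called in OGP against control (6 at an unadjusted p under 0.05, 0 by voom). There *Irf7* gave 0.35 and *Stat2* -0.31 (limma adjusted p = 0.0368 and 0.0443), short of the fold for a call. In OGE 4 were called lower and 0 higher against OGP, where 4.73% of all genes were lower. Against control 4 were lower and 0 higher too, where 6.33% of all genes were lower. *Irf7*, the gene of a factor that drives interferon genes, had 56.0, 73.6 and 75.1 FPKM in control, 90.0, 85.8 and 84.1 in OGP, and 25.4, 25.1 and 25.6 in OGE, a log2 fold change of -1.75 against OGP (limma adjusted p = 1.25e-05). *Stat2* gave -0.95 and *Irf9* -0.65 against OGP. Against control *Irf7*, *Stat2* and *Irf1* were lower in OGE, with log2 fold changes of -1.40, -1.27 and -0.71. The receptor genes *Ifnar1* and *Ifnar2* were not called in a comparison.

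Of 12 interferon genes, 10 had a mean under 0.5 FPKM and were not tested. *Ifnb1*, the gene of interferon beta, had 3.28, 3.61 and 4.09 FPKM in control, 4.51, 6.27 and 7.37 in OGP, and 1.64, 1.65 and 1.37 in OGE, on 16 to 90 reads per library. The 3 groups did not overlap, and OGP was the highest. *Ifnb1* rose in OGP by 0.63 on the log2 scale (SE 0.16, limma adjusted p = 0.0168), and fell by 1.65 in OGE against OGP (adjusted p = 1.51e-04). OGE against control gave -1.01 (adjusted p = 0.00190). *Ifna4*, which has near-identical relatives that can share its reads, gave -1.35 and -1.09 in the latter 2 comparisons and was called lower in both, on 4 to 39 reads per library.

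Immune cells also use these genes, so their markers are given beside the result. Of 10 microglia and macrophage markers, *Tyrobp*, *Itgam* and *Adgre1* were at 0 in all 9 libraries, *Cx3cr1*, *Ptprc* and *P2ry12* were under 0.1 FPKM in each, and 2 were tested. The summed level was 15.3 to 20.3 FPKM in control, 19.5 to 22.4 in OGP and 10.9 to 12.5 in OGE libraries, most of it *Tmem119*, which fell by 0.90 in OGE against OGP (limma adjusted p = 0.00129). *Cd68*, the other tested marker, had group means of 3.005, 3.37 and 2.33 FPKM and gave -0.46 in OGE against OGP (limma adjusted p = 0.0327), which missed the fold for a call. *Aif1* reached 0.89 FPKM in an OGP library. *Csf1r*, also too low to be tested, went the other way, with group means of 0.316, 0.114 and 0.262 FPKM in control, OGP and OGE. Astrocyte markers summed to 44.0 to 49.1, 21.5 to 22.6 and 39.6 to 48.0 FPKM in control, OGP and OGE, with *Aqp4* at 0 throughout. In OGE against OGP *Gja1* and *Sox9* were higher, at 1.11 and 1.43 on the log2 scale, and *Slc1a3* was lower, at -0.64. Oligodendrocyte markers summed to 6.43 to 9.11 FPKM in control, 8.25 to 9.39 in OGP and 5.41 to 5.84 in OGE, with *Mag* at 0 throughout. Most of that was *Cnp*, which was lower in OGE than in OGP (-0.71, limma adjusted p = 0.00476) and than in control (-0.65). Endothelial markers summed to 0.0939 to 0.253 FPKM over the 9 libraries. Mesenchymal markers summed to 1183 to 1537, 999 to 1076 and 827 to 963 FPKM in control, OGP and OGE. Most of that was *Vim* and *Col1a1*, the latter with group means of 777, 383 and 369 FPKM and called lower than control in OGP and OGE. Other markers of the list differed from the sum. *Nt5e* was called higher in OGE than in OGP (1.23 on the log2 scale) and than in control. *Col3a1* was called higher in OGP than in control (0.78) and lower in OGE than in OGP (-0.88). The part of these differences in the results was not tested.

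Tested protein-coding genes outside the members, without predicted loci, were compared over the 9 libraries. Those with a pattern most like that of *Isg15* were *Btg2*, *Gstm2*, *Zfp36*, *Psmb9* and *Klf2*, with Pearson's r of 0.993 to 0.988 on log2(FPKM + 0.5). *Btg2* had group means of 22.4, 23.9 and 2.38 FPKM in control, OGP and OGE, and *Gstm2* had 97.8, 95.6 and 53.6. *Zfp36* had 34.7, 29.7 and 7.31, and *Klf2* had 10.1, 9.84 and 2.47. *Psmb9*, an interferon-induced subunit of the immunoproteasome, had 10.8, 10.9 and 3.39. The genes most like the mean standardised profile of the 9 members were *Dhx58*, *Igtp*, *Phf11b*, *Hpse* and *Prelp* (r = 0.996 to 0.989). *Dhx58*, the gene of the RNA sensor LGP2, had group means of 44.3, 62.0 and 20.3 FPKM, and *Igtp*, an interferon-induced GTPase gene, had 131, 175.5 and 49.2. Between pairs of members r ran from 0.442 (*Dtx3l* and *Uba7*) to 0.991 (*Ube2l6* and *Parp9*) over 36 pairs, with a median of 0.899. These coefficients are descriptions over 9 libraries that share 3 group means.

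*Parp14*, *Dtx3l* and *Parp9* lie within 139.7 kb of chromosome 16, and all 3 fell in OGE against OGP. The next tested coding gene beside *Parp9*, *Kpna1* at 6144 bases, was not called there (log2 fold change 0.34, limma adjusted p = 0.0999). Of 13 nearest coding neighbours of the members within 100 kb that are not members themselves, 3 were lower in OGE against OGP and 0 higher. These were *AW011738*, 2485 bases from *Isg15* (-1.14), *Inka1*, 162 bases from *Uba7* (-0.96), and *Ppm1k*, 45531 bases from *Herc6* (-0.67). Of all genes tested, 4.73% were called lower and 3.39% higher in OGE against OGP. The same 3 neighbours were lower and 0 higher in OGE against control, where 6.33% of all genes were lower. In OGP against control 1 neighbour was called, *Kdm7a* beside *Parp12*, at -0.69, where 5.74% of all genes were lower.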

How the data were processed

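RNA-seq was measured in 9 libraries of HT22 cells, 3 each of control, OGP and OGE, grouped by the labels. The authors cleaned paired-end reads, used HISAT2 2.0.5 (mm10) and featureCounts, and deposited FPKM per gene and library. The sources used here do not name the FPKM tool. For the RNA extraction the paper names TRIZOL and the labels name RNeasy. FPKM times gene length gave whole reads to within 0.1 after division by a single step per library. The 13245 genes averaging 0.5 FPKM or more entered limma 3.58.1 (R 4.3.3, trended prior variance) on log2(FPKM + 0.5), with all 9 libraries in a model of 3 groups, with Benjamini-Hochberg adjustment over all of them. Called genes (DEGs) had an adjusted p no greater than 0.05 and changed 1.5-fold or more. The fold thus understates changes of genes near 0.5 FPKM. The script was tested on simulated data. Members and lists were chosen with earlier results of these data known. Named were the members, the called genes of the lists on ISG15, PARP, ADP-ribose and interferon, relatives of members, the 5 genes most like *Isg15* and the 5 most like the members' mean, and neighbouring or overlapping genes. *Ube2e2*, *Dtx4*, *Rps27a*, *Parp1*, *Parp3*, *Parp16*, *Tnks*, *Zc3hav1*, *Parg*, *Ifnar1*, *Ifnar2* and the interferon and marker genes were named after their values were seen. Some listed genes are not reported here. Alternatives were other pseudocounts, filters, scalings, prior variance and fold threshold, 6 libraries at a time, voom on the recovered reads, a replicate block and leaving out each library. The fit without control replicate 1 and OGE replicate 3 was chosen after seeing the data.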

Additional observations from a re-analysis of the deposited data

How the results depend on the processing

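Over 21 alternatives, 551 of the members' fold changes kept direction and side of the threshold, 9 were newly called, 4 were no longer called and 3 changed sign. The last were *Isg15* in OGP against control, at -0.26 with quantile normalization and at -0.16 without control replicate 1, both alone and together with OGE replicate 3 (the last alternative chosen after seeing the data). Leaving out each library in turn gave it -0.16 to 0.20. Without a fold threshold the calls over all genes were 3941 in OGP against control, 2750 in OGE against OGP and 3287 in OGE against control, in place of 1605, 1075 and 1519, and 5 members were called in OGP against control. That removes a criterion by construction. Leaving out each library in turn gave 1340 to 1912, 889 to 1181 and 1342 to 2017 calls over all genes, and 3 to 3, 8 to 9 and 7 to 9 members. The cause of the members' changes was not tested. With 3 libraries a group, permutation tests of a single ratio cannot go below 0.1.

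The replicate numbers did not pair the libraries: the correlation of deviations from the group means ran from -0.177 to 0.319 between libraries of the same number, was over 0.1 in 2 of 9 such pairs, and 3 of 9 libraries correlated best with their own number. With the replicate block the calls over all genes were 1581, 1043 and 1484, and 3, 9 and 7 members were called.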
